A study of Mus musculus with 10 samples.

Results

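Glucocorticoid hormones act on fat through a short chain of genes: an enzyme that makes the active steroid inside the cell, the receptors that bind it, and the genes those receptors switch on. Of the 31285 genes in the deposited table, 10 are described here, chosen by symbol: the receptors Nr3c1 and Nr3c2, the activating enzyme Hsd11b1, and the targets Rasd1, Tsc22d3, Fkbp5, Per1, Zbtb16, Sgk1 and Mt1. All 10 were found once in the table, and all 10 passed the filter on low values, at least 1 FPKM in at least 5 libraries. FPKM is fragments scaled by gene length and by library depth, so levels can be set side by side between genes.

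RNA was sequenced from inguinal white adipose tissue, a subcutaneous fat depot, of mice aged 20 months that were fed chow freely. There were 5 Ad-GHRKO libraries, from mice with a knockout of the growth hormone receptor gene aimed at adipose tissue (the sample labels call this genotype GHR Knockdown), and 5 Flox libraries, from the mice they are set against. The sources used here name neither the driver of the deletion nor the sex of the mice. They also do not say that each library is a separate animal, and p-values then cover only the spread among these libraries, which may be technical. Cells of the depot other than adipocytes may still carry the receptor.

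As background, corticosterone, the main glucocorticoid of mice, circulates together with an inert keto form. Hsd11b1 encodes the enzyme that turns the inert form back into active hormone, using cofactor supplied by the enzyme encoded by H6pd, and growth hormone is known to restrain Hsd11b1. The bound receptor moves into the nucleus and binds palindromic DNA elements near its targets. In fat, glucocorticoids are known to promote adipocyte differentiation and to alter lipid storage and release.

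Read depth, recovered from the FPKM values, was 14.6 to 19.3 M reads in Ad-GHRKO and 15.9 to 19.0 M reads in Flox (M, mega). Ghr, the targeted gene, was at 16.6 ± 2.71 FPKM in Ad-GHRKO and 93.5 ± 21.9 FPKM in Flox (SD, n = 5 each; log2 change -2.41, SE 0.17, limma adjusted p = 6.54e-05). A list of 15 skeletal muscle markers made up 16.1% of reads in Ad-GHRKO 1, with 9.11% in Flox 5 and 6.44% in Flox 3, and these 3 libraries are called muscle-rich below. The share was 0.203% in Ad-GHRKO 5 and at most 0.0135% in the other 6 libraries. Xist was at 0.0239 FPKM or less in every library, while the Y-linked Ddx3y was at 7.40 FPKM or more in each. Over all 12785 genes tested, 280 (2.19%) passed a limma adjusted p of 0.05, with 99 higher and 181 lower in Ad-GHRKO. When libraries were rescaled to TPM the split became 139 higher and 91 lower.

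Of the 10 genes, 2 fell in Ad-GHRKO, none rose and 8 did not pass the test. The genes that fell were Hsd11b1 and Rasd1. Of all genes tested, 0.774% were called higher and 1.42% lower, and the 10 genes were picked with earlier results of these data known, so this count is a description. The groups did not overlap for 3 of the 10 genes, lower in Ad-GHRKO for Hsd11b1 and Rasd1 and higher for Mt1. Of all genes tested, 4.97% had groups without overlap, 1.62% higher and 3.35% lower in Ad-GHRKO.

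**Figure D1:**
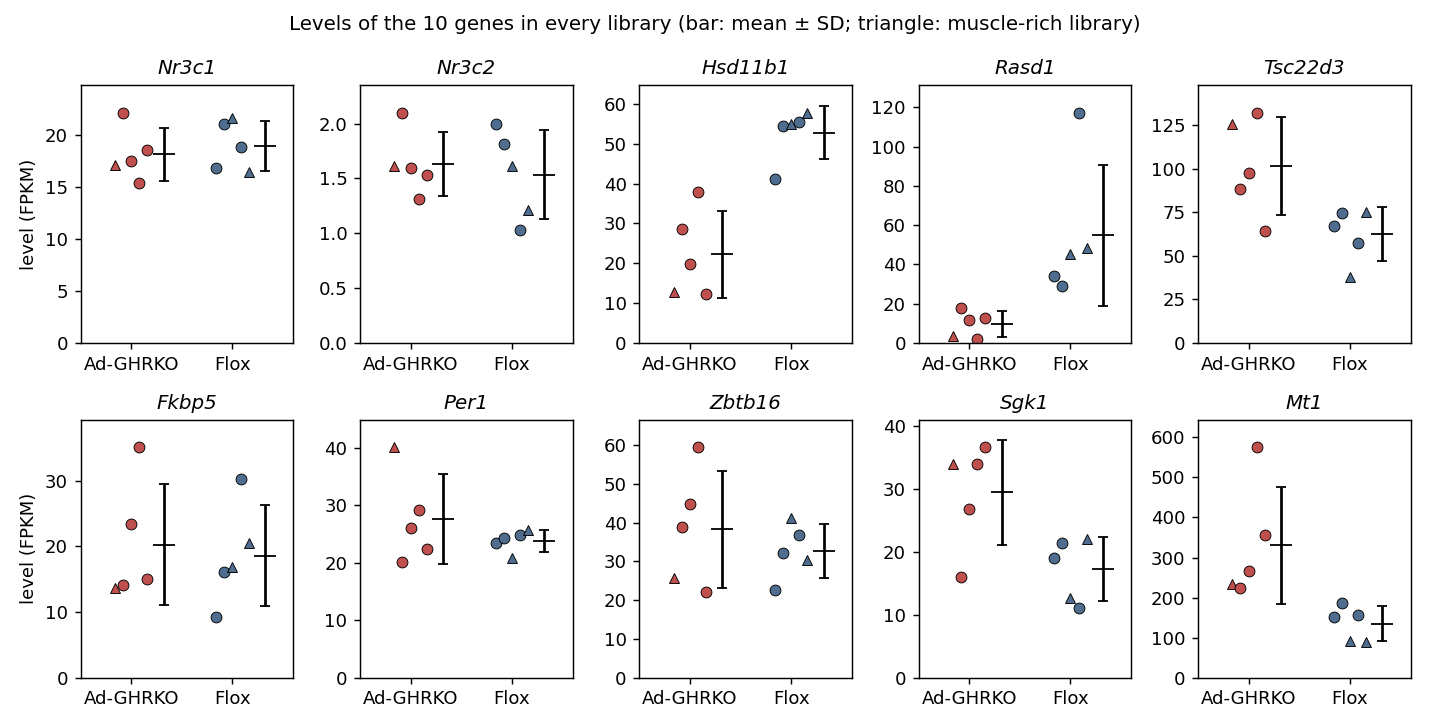
Level in FPKM (y axis, from 0) of each of the 10 genes in the 5 Ad-GHRKO and 5 Flox libraries (x axis), with each point a library in replicate order, triangles the muscle-rich libraries, and the bar beside them the mean ± SD. Hsd11b1 and Rasd1 lie lower in every Ad-GHRKO library than in any Flox library, Mt1 lies higher, and the other 7 genes overlap.

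The receptor transcripts did not pass the test. Nr3c1, which encodes the glucocorticoid receptor (ENSMUSG00000024431, chromosome 18, 39410545 to 39519421, minus strand, GRCm38), was at 17.1, 22.2, 17.5, 15.4 and 18.6 FPKM in Ad-GHRKO libraries 1 to 5. In Flox libraries 1 to 5 it was at 16.8, 21.1, 21.6, 18.8 and 16.4 FPKM. The groups covered almost the same range, with a log2 change of -0.06 and a 95% interval of -0.35 to 0.23 (limma adjusted p = 0.868). Nr3c2, which encodes the mineralocorticoid receptor, a close relative that also binds glucocorticoids (ENSMUSG00000031618, chromosome 8, 76899442 to 77245012, plus strand), was far less abundant. It averaged 1.63 ± 0.288 FPKM in Ad-GHRKO and 1.53 ± 0.406 FPKM in Flox (SD, n = 5 each; log2 change 0.06, 95% interval -0.24 to 0.37, adjusted p = 0.870). Exons of Nr3c2 overlap the antisense gene Gm10649, and the sources do not say whether reads were counted by strand. Per unit length, Nr3c1 exceeded Nr3c2 by 10.5 to 12.1 times in Ad-GHRKO libraries and by 8.42 to 18.3 times in Flox libraries.

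Hsd11b1, the activating enzyme (ENSMUSG00000016194, chromosome 1, 193221634 to 193264075, minus strand), fell in Ad-GHRKO. This direction is opposite to the rise that loss of the known restraint by growth hormone would give, and its cause was not tested. Ad-GHRKO libraries 1 to 5 stood at 12.9, 28.5, 19.7, 37.9 and 12.3 FPKM, against 41.2, 54.5, 54.9, 55.4 and 57.8 FPKM in Flox libraries 1 to 5. The highest Ad-GHRKO library, number 4, stayed below the lowest Flox library, number 1. Means were 22.3 ± 10.9 FPKM in Ad-GHRKO and 52.8 ± 6.57 FPKM in Flox (SD, n = 5 each), which puts Flox 2.37-fold above Ad-GHRKO. On the log2(FPKM + 1) scale the change was -1.33 (SE 0.28, 95% interval -1.94 to -0.71, limma adjusted p = 0.0347), and an exact permutation test (two-sided) over all assignments of the libraries had p = 0.00794, its minimum. Every gene whose groups do not overlap has this permutation p, here and below, so it adds nothing to the lack of overlap. Between 766 and 4679 reads stood behind each value. The spread was wider within Ad-GHRKO, where the highest library was 3.07 times the lowest, against 1.40 times within Flox.

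The call of Hsd11b1 was near the threshold. It ended when any single library other than Ad-GHRKO 1, 2 or 4 was left out (adjusted p 0.0520 to 0.0944), without the 3 muscle-rich libraries (log2 change -1.10, adjusted p = 0.0901) and with TPM rescaling (adjusted p = 0.0695), while the direction held throughout. Without the 4 libraries with muscle reads, which add Ad-GHRKO 5 to these 3, the log2 change was -0.83, and with array weights it was -0.84. The mean log2 level of immediate early genes did not overlap between genotypes. With it as a covariate the log2 change was -0.27 (adjusted p = 0.999), against -2.33 for Rasd1 (adjusted p = 0.948), and in that fit covariate and genotype cannot be told apart.

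Markers of adipocytes went both ways. The 9 markers, all tested, summed to 3490 to 10062 FPKM in Ad-GHRKO and 6755 to 10822 FPKM in Flox, with 7 negative and 2 positive log2 changes, none past the test and none at 0. Adipoq, which encodes adiponectin, had no overlap, at 933 ± 288 FPKM in Ad-GHRKO and 1840 ± 465 FPKM in Flox (SD, n = 5 each; limma adjusted p = 0.117). Lep, which encodes leptin, lay the other way, at 768 ± 333 FPKM in Ad-GHRKO and 283 ± 96.4 FPKM in Flox, with 4 of 5 Ad-GHRKO libraries above every Flox library (log2 change 1.35, adjusted p = 0.115). The log2 changes of the other 7 ran from -0.64 to 0.10. Adipoq and Lep were chosen for mention after their values were seen. With the mean log2 level of the 9 markers as a covariate the log2 change of Hsd11b1 was -1.20 (adjusted p = 0.0153). In bulk tissue, fewer cells of a type and less RNA per cell cannot be told apart.

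H6pd, which supplies the cofactor of that enzyme inside the endoplasmic reticulum (ENSMUSG00000028980), lay the other way. It was at 62.7, 137, 144, 179 and 127 FPKM in Ad-GHRKO libraries 1 to 5 and at 96.9, 97.5, 74.4, 63.6 and 61.2 FPKM in Flox libraries 1 to 5. Only the muscle-rich Ad-GHRKO 1 lay within the Flox range, and the gene did not pass the test (log2 change 0.66, 95% interval 0.08 to 1.25, adjusted p = 0.241), but it passed as higher without that library (log2 change 0.91, adjusted p = 0.0166). That fit called 1182 of 12683 genes. H6pd passed under 3 of 25 alternatives, and in 1 of the 10 fits that left out a single library (adjusted p up to 0.436). The level of Hsd11b1 relative to H6pd was 0.0972 to 0.212 in Ad-GHRKO libraries and 0.426 to 0.945 in Flox libraries, with no overlap. Hsd11b1 alone already had no overlap, so the ratio adds no separate result. Hsd11b2, the enzyme that inactivates the hormone, was near the detection limit at 0.282 to 0.547 FPKM in Ad-GHRKO and 0.171 to 1.31 FPKM in Flox and was not tested.

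The 250 bases before the RefSeq start of Hsd11b1 are shown because it was the enzyme that changed (chr1:193242361-193242610, minus strand, GRCm38.p6), 5′ to 3′, with a CCAAT box in capitals.
Hsd11b1: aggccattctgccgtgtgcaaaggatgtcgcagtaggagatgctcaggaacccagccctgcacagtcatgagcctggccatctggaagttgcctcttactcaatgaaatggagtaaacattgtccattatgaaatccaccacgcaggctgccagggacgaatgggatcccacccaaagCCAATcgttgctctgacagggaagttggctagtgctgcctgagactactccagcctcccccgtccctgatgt
The letters CCAAT, on either strand, were found in 33.8% of 32851 such windows over all genes. This start lies inside the gene as the deposited table bounds it, and the window held no match to the full or shortened glucocorticoid element searched for.

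Rasd1 had the largest change of the 10 genes. It encodes a small Ras-related GTPase, named for its induction by the synthetic glucocorticoid dexamethasone (ENSMUSG00000049892, chromosome 11, 59963181 to 59964944, minus strand). Values in Ad-GHRKO libraries 1 to 5 were 3.63, 17.6, 11.7, 2.19 and 12.6 FPKM, against 34.0, 29.1, 45.1, 117 and 48.1 FPKM in Flox libraries 1 to 5. The groups did not overlap, and their means were 9.54 ± 6.47 FPKM in Ad-GHRKO and 54.7 ± 35.8 FPKM in Flox (SD, n = 5 each). The log2 change was -2.51 (SE 0.51, 95% interval -3.63 to -1.39, adjusted p = 0.0313, exact permutation p = 0.00794). By mean level Rasd1 ranked 9 of 10 in Ad-GHRKO and 3 of 10 in Flox.

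Rasd1 also varied most within a genotype, by 8.02 times between the highest and lowest Ad-GHRKO library and by 4.03 times within Flox. The lowest library held 68 reads and the highest 3371. Its call ended when any single library other than Ad-GHRKO 1 or 2 was left out (adjusted p up to 0.0697), and without the 3 muscle-rich libraries (log2 change -2.31, adjusted p = 0.0833). Flox 4 was far above the other Flox libraries, and without it the log2 change was -2.19 (adjusted p = 0.0676).

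Mt1 encodes metallothionein 1, a small metal-binding protein induced by glucocorticoids, zinc and oxidative stress (ENSMUSG00000031765, chromosome 8, 94179082 to 94180327, plus strand). It was the most abundant of the 10 genes in either genotype. Ad-GHRKO libraries 1 to 5 showed 234, 223, 266, 575 and 356 FPKM, against 152, 187, 91.9, 156 and 88.0 FPKM in Flox libraries 1 to 5. Each Ad-GHRKO library lay above each Flox library, and the means were 331 ± 146 FPKM in Ad-GHRKO and 135 ± 43.3 FPKM in Flox (SD, n = 5 each). The gene narrowly missed the threshold (log2 change 1.26, 95% interval 0.59 to 1.92, limma adjusted p = 0.0579, exact permutation p = 0.00794), and passed it as higher under 8 of 25 alternatives, with adjusted p of 0.0194 to 0.0471. Its neighbour Mt2 was not analysed here.

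Sgk1 and Tsc22d3 lay mostly higher in Ad-GHRKO without passing the test. Sgk1, a serine and threonine kinase that controls ion transport (ENSMUSG00000019970, chromosome 10, 21882184 to 21999903, plus strand), was at 34.0, 16.0, 26.9, 33.9 and 36.6 FPKM in Ad-GHRKO libraries 1 to 5. In Flox libraries 1 to 5 it was at 19.1, 21.4, 12.6, 11.1 and 22.1 FPKM. Ad-GHRKO 2 was the only library of its genotype within the Flox range (log2 change 0.73, 95% interval 0.17 to 1.29, adjusted p = 0.180).

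Tsc22d3, also called Gilz, encodes a leucine zipper protein that mediates anti-inflammatory actions of glucocorticoids (ENSMUSG00000031431, chromosome X, 140539528 to 140600659, minus strand). It was at 126, 88.1, 97.4, 132 and 64.0 FPKM in Ad-GHRKO libraries 1 to 5, against 66.9, 74.7, 37.7, 57.5 and 74.9 FPKM in Flox libraries 1 to 5. Here it was Ad-GHRKO 5 that lay within the Flox range (log2 change 0.69, 95% interval 0.16 to 1.22, adjusted p = 0.179). Of the 10 genes, 5 had an unadjusted p under 0.05, with Mt1, Sgk1 and Tsc22d3 higher and Hsd11b1 and Rasd1 lower, where 16.4% of all genes did.

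Fkbp5, Zbtb16 and Per1 overlapped widely. Fkbp5, a chaperone partner that lowers the receptor's affinity for hormone (ENSMUSG00000024222, chromosome 17, 28399094 to 28517527, minus strand), was at 13.7, 14.1, 23.4, 35.1 and 15.1 FPKM in Ad-GHRKO libraries 1 to 5 and at 9.26, 16.1, 16.9, 30.2 and 20.5 FPKM in Flox libraries 1 to 5. Number 4 was the highest library of each genotype (log2 change 0.11, 95% interval -0.58 to 0.81, adjusted p = 0.902). Zbtb16, a zinc finger transcription factor (ENSMUSG00000066687, chromosome 9, 48654297 to 48836222, minus strand), averaged 38.2 ± 15.1 FPKM in Ad-GHRKO and 32.7 ± 7.07 FPKM in Flox (SD, n = 5 each). Its Ad-GHRKO values ran from 22.2 to 59.5 FPKM and its Flox values from 22.6 to 41.3 FPKM (log2 change 0.16, 95% interval -0.41 to 0.73, adjusted p = 0.817).

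Per1, a repressor of the circadian clock that glucocorticoids also induce (ENSMUSG00000020893, chromosome 11, 69095217 to 69109960, plus strand), was at 40.0, 20.0, 26.0, 29.2 and 22.3 FPKM in Ad-GHRKO libraries 1 to 5 and between 20.7 and 25.6 FPKM in Flox. The muscle-rich Ad-GHRKO 1 was the highest (log2 change 0.17, 95% interval -0.21 to 0.55, adjusted p = 0.698). The log2 change was 0.026 without that library and 0.00024 without the 3 muscle-rich libraries. Its relative Per2 was at 9.86 ± 2.06 FPKM in Ad-GHRKO and 6.85 ± 2.11 FPKM in Flox (adjusted p = 0.247). Of 15 clock genes tested, Per2 included, none passed (7 positive and 8 negative, median log2 change -0.0031), and 2 had an unadjusted limma p under 0.05.

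**Figure D2:**
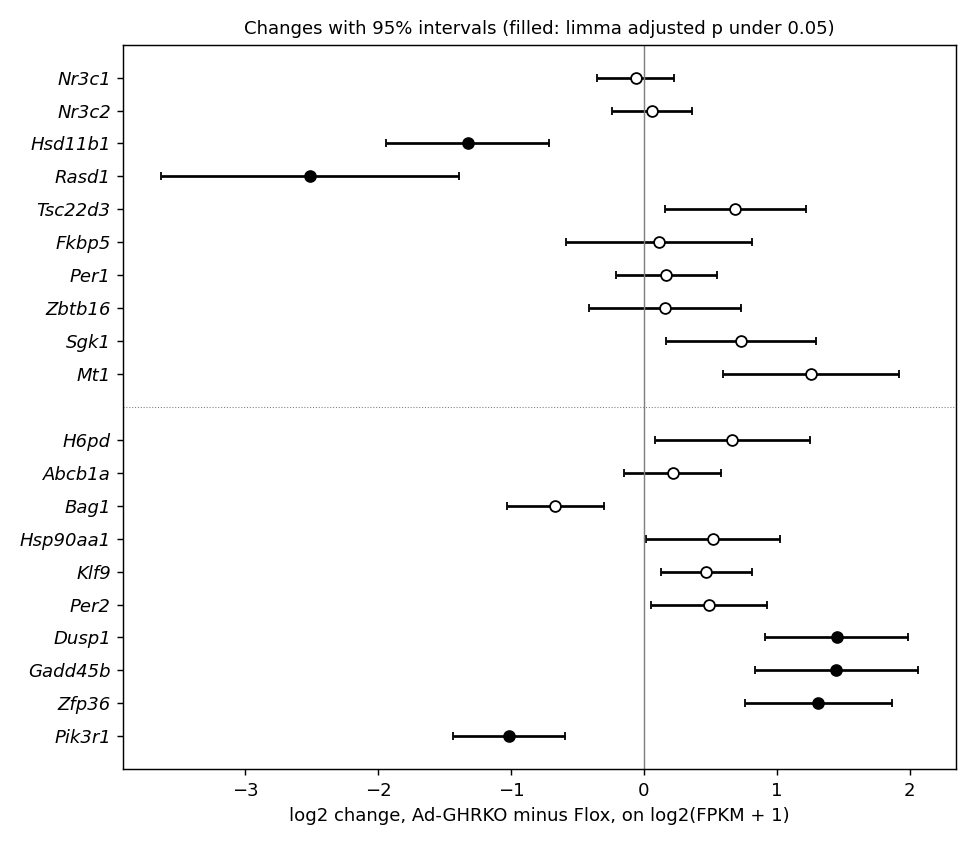
Log2 change on the log2(FPKM + 1) scale, Ad-GHRKO minus Flox (x axis), with 95% intervals, for the 10 genes (above the dotted line) and 10 other genes of the pathway (below it). Filled points passed a limma adjusted p of 0.05: Hsd11b1, Rasd1 and Pik3r1 fell, and Dusp1, Gadd45b and Zfp36 rose.

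The receptor's classical binding element is a palindrome, searched here on either strand as AGAACA and TGTTCT parted by NNN (N, any base), and in a shortened form as GAACA and TGT parted by NNN. RefSeq windows of 250 bases before a start were found for 7 of the 10 genes, 15 windows in all, of which 6 belong to Sgk1 and 3 to Tsc22d3. The full form occurred in 3 of 32851 windows over all genes (0.00913%), and 1 of these 3 belongs to Sgk1. The shortened form, which the full form contains, occurred in 0.849% of windows, among them that of Mt1 and the same window of Sgk1. The Per1 window is shown for its E-box, CACGTG, the element bound by clock factors, found in 6.02% of windows. Among the 10 genes, windows of Fkbp5 and Sgk1 held an E-box too. Windows are on the plus strand of GRCm38.p6, at chr10:21993640-21993889, chr8:94178839-94179088 and chr11:69098699-69098948, and capitals mark the element named.
Sgk1: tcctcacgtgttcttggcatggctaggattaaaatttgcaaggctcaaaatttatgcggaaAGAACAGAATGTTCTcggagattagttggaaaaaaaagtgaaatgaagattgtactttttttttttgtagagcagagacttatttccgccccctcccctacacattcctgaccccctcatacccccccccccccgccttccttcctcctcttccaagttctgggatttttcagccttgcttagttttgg
Mt1: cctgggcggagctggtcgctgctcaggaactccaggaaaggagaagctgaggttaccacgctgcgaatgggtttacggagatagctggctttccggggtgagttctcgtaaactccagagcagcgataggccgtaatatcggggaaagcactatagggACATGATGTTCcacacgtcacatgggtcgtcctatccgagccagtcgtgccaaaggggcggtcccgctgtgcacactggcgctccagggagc
Per1: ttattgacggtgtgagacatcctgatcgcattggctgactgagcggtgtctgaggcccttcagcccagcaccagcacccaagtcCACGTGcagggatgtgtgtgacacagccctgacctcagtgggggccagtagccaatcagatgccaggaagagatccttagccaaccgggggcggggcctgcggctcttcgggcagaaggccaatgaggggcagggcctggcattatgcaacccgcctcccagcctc
Counted from each start, the Sgk1 element lies at -189 to -175 and the Mt1 match, on the minus strand, at -92 to -82. Each start shown lies inside its gene as the deposited table bounds it, that of Mt1 by only a few bases. The single arm TGTTCT was found in 16.1% of all windows, in windows of Sgk1 and Tsc22d3 among the 10 genes, and it lies inside the full form. Near the far end of the Sgk1 window another TGTTCT overlaps an E-box. A match describes these letters and shows no binding.

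Ad-GHRKO 4 was the highest library of its genotype for 5 of the 10 genes, Hsd11b1, Tsc22d3, Fkbp5, Zbtb16 and Mt1, and the lowest for Nr3c1, Nr3c2 and Rasd1. Rasd1 and Mt1 thus lay at opposite ends in that library, at 2.19 and 575 FPKM. Flox 5 was the highest library of its genotype for 4 of the 10 genes. Such counts were not made over all genes tested.

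Among other genes of the pathway, 4 passed the test. In a list of 36 further genes reported as glucocorticoid-responsive, 35 were found by symbol and 33 were tested. Of these 33, 3 rose, 1 fell and 29 did not pass. That is 12.1% called, beside 2.19% over all genes tested (0.774% higher and 1.42% lower). The list was chosen with earlier results of these data known, so this count is a description. Dusp1, a phosphatase that switches off MAP kinases, was at 85.1 ± 26.9 FPKM in Ad-GHRKO and 29.2 ± 4.58 FPKM in Flox (log2 change 1.45, adjusted p = 0.0134). Gadd45b, a stress and growth arrest gene, was at 22.4 ± 10.9 FPKM in Ad-GHRKO and 7.21 ± 1.98 FPKM in Flox (log2 change 1.45, adjusted p = 0.0243). Zfp36, which destabilizes cytokine transcripts, was at 67.4 ± 21.6 FPKM in Ad-GHRKO and 26.1 ± 7.01 FPKM in Flox (log2 change 1.31, adjusted p = 0.0242).

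The call that went the other way was Pik3r1, which encodes a subunit that regulates PI3 kinase, at 15.0 ± 2.31 FPKM in Ad-GHRKO and 31.9 ± 8.28 FPKM in Flox (log2 change -1.01, adjusted p = 0.0224). Klf9, a transcription factor among the direct receptor targets, was at 37.4 ± 5.46 FPKM in Ad-GHRKO and 26.8 ± 4.84 FPKM in Flox, without overlap, and did not pass (adjusted p = 0.158). Exons of Dusp1 and Zfp36 overlap genes on the other strand, Ergic1 and Gm44710. The same holds for Junb and Abcb1a, named below, with Prdx2 and Gm42686. Without the 3 muscle-rich libraries the call of Dusp1 ended (log2 change 1.27, adjusted p = 0.0526). When single libraries were left out, the call of Dusp1 held in all 10 fits (adjusted p up to 0.0439). Those of Gadd45b, Zfp36 and Pik3r1 held in 6, 3 and 4 of 10 such fits, with adjusted p up to 0.0664, 0.0743 and 0.0664.

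Dusp1, Gadd45b and Zfp36 are also induced rapidly by many stimuli. Of 16 immediate early genes tested, all had positive log2 changes (median 0.94) and 3 rose, Fos (log2 change 2.58, adjusted p = 0.00436), Egr1 (2.43, adjusted p = 0.00454) and Junb (2.11, adjusted p = 0.0140). Over all genes tested, 55.7% had positive changes and 0.774% were called higher. The summed level of the 20 listed genes was 326 to 825 FPKM in Ad-GHRKO and 136 to 300 FPKM in Flox. With their mean log2 level as a covariate the log2 changes were 0.42 for Dusp1, 0.38 for Gadd45b and 0.44 for Zfp36 (adjusted p = 0.999 each), again in a fit where covariate and genotype cannot be told apart. The 6 macrophage markers, none past the test, all had positive log2 changes, with summed levels of 497 to 1780 FPKM in Ad-GHRKO and 311 to 1062 FPKM in Flox, and their part in these results was not tested. The 4 smooth muscle markers tested of 5 also had positive log2 changes, none past the test, with summed levels of all 5 of 117 to 345 FPKM in Ad-GHRKO and 72.1 to 147 FPKM in Flox. Of these, Acta2, chosen for mention after its values were seen, had no overlap, at 154 ± 80.5 FPKM in Ad-GHRKO and 56.4 ± 17.2 FPKM in Flox (log2 change 1.34, adjusted p = 0.0629). The part of smooth muscle was not tested.

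The list of 33 tested targets had a median log2 change of 0.40, with 24 positive, beside a median of 0.04 and 55.7% positive over all genes tested. This list, like all lists here, was chosen with earlier results of these data known, so the comparison is a description. The 18 receptor partners (chaperones and coregulators) had a median of 0.03 and none passed. The smallest p among them belonged to Bag1, a co-chaperone that restrains the receptor, at 117 ± 16.6 FPKM in Ad-GHRKO and 187 ± 34.0 FPKM in Flox (log2 change -0.67, adjusted p = 0.0659). Hsp90aa1, a chaperone that holds the receptor ready for hormone, was at 72.6 ± 18.7 FPKM in Ad-GHRKO and 50.9 ± 16.7 FPKM in Flox (log2 change 0.52, adjusted p = 0.288). Its more abundant relative Hsp90ab1, also in this list, was at 420 ± 109 FPKM in Ad-GHRKO and 426 ± 79.7 FPKM in Flox (log2 change -0.04, adjusted p = 0.954). Hsp90ab1 was chosen for mention after its values were seen. Of 8 steroid supply genes, 5 were tested and none passed. After H6pd the smallest p was that of the steroid exporter gene Abcb1a (log2 change 0.22, adjusted p = 0.572).

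**Figure D3:**
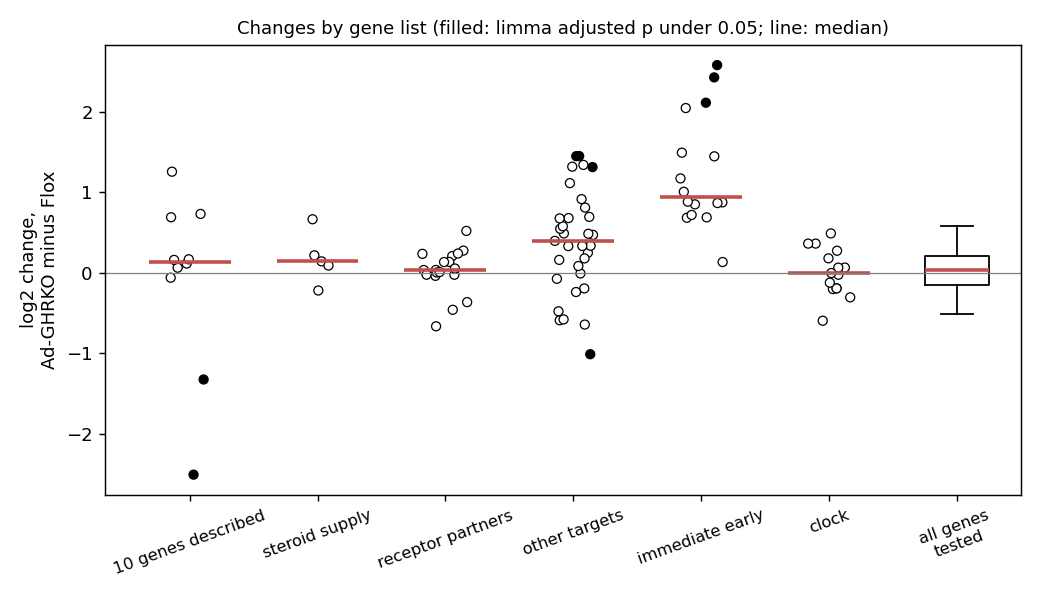
Log2 change, Ad-GHRKO minus Flox (y axis), of each tested gene by list (x axis), with filled points past a limma adjusted p of 0.05 and red lines at the medians. For all 12785 genes the box holds the quartiles and the whiskers the central 90%. The median was 0.40 for other targets, 0.94 for immediate early genes and 0.04 for all genes. The lists were chosen with earlier results of these data known.

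Among growth hormone targets, Igf1 passed the test and Socs2 did not. Igf1 fell, at 5.51 ± 1.85 FPKM in Ad-GHRKO and 18.3 ± 5.90 FPKM in Flox (log2 change -1.56, adjusted p = 0.00468). Socs2, a feedback inhibitor of the receptor, was at 1.55 ± 0.386 FPKM in Ad-GHRKO and 1.08 ± 0.241 FPKM in Flox (log2 change 0.28, adjusted p = 0.330).

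**Figure D4:**
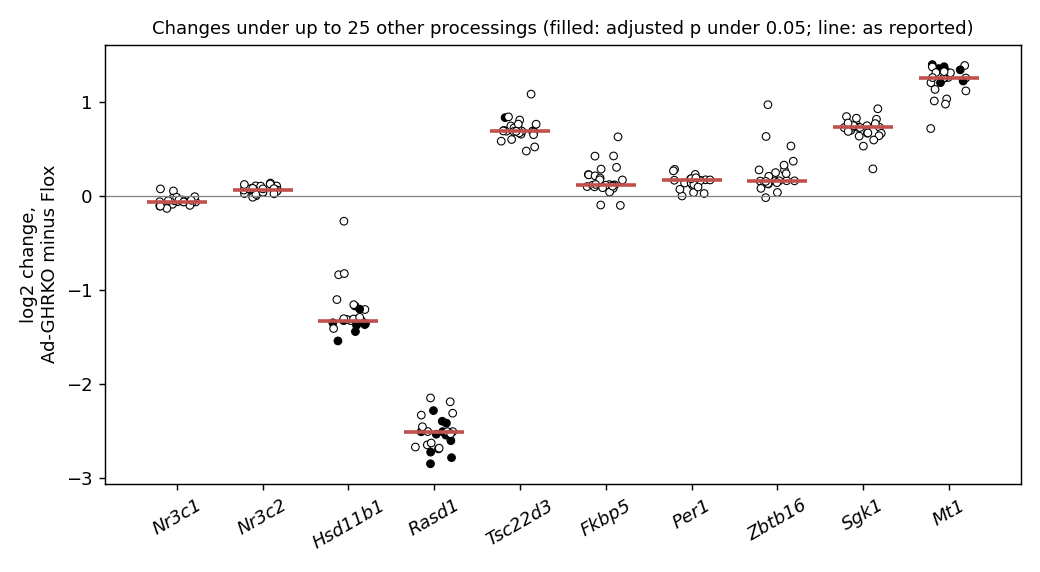
Log2 change of each of the 10 genes, Ad-GHRKO minus Flox (y axis), under up to 25 other ways of processing (points), with the reported value as a red line and filled points past a limma adjusted p of 0.05. Hsd11b1 ranged from -1.54 to -0.27 and Rasd1 from -2.85 to -2.15, past the threshold under 11 and 12 alternatives, while Nr3c1, Nr3c2, Fkbp5 and Zbtb16 crossed 0.

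The genes whose centred log2 profiles over the 10 libraries lay closest to that of Hsd11b1, among 11311 tested, were Pygl, Bscl2 and Acat2, with root mean square differences of 0.26, 0.26 and 0.27 on the log2 scale. For Rasd1 they were G0s2, Insig1 and Nap1l5, at 0.75, 0.81 and 0.88. These genes were found by likeness, so their own changes are no further result. Distances were larger for Rasd1, whose values spread more.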

How the data were processed

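Per the labels' protocols, polyadenylated RNA was captured on oligo(dT) beads and copied from random primers. The authors deposited FPKM values in 1 table with 1 column per library, per the file headers. Aligner and counting tool: not given in the sources used here. For the build, the submitters' processing notes name GRCm39, but 99.54% of 31253 gene identifiers shared with GENCODE M21 had its exact GRCm38 coordinates, so these are printed as GRCm38. Multiplying FPKM by exon length in that release gave whole reads (tolerance 0.01) for 99.43% to 99.49% of values, hence the recovered depth. At the mean depth 1 FPKM on 1 kilobase is about 17.9 reads.

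limma 3.58.1 in R 4.3.3 was run with a mean-variance trend on log2(FPKM + 1), which understates changes of low genes, over the 12785 genes that reached 1 FPKM in 5 or more libraries, two-sided, with Benjamini-Hochberg adjustment over all of them. Single genes were also compared by exact permutation over all assignments. The fit was tested on simulated counts, drawn with the same spread setting for every gene and no difference in muscle content between libraries. That run does not cover the muscle-rich libraries or genes with a wide spread such as Rasd1. The 10 genes and all lists were chosen with earlier results of these data known. All 10 genes are named, as are genes past the threshold in the steroid supply, receptor partner and other target lists (with none, the pair with the smallest p) and a few fixed partners. From the immediate early and clock lists up to 3 genes past the threshold are named, and from the growth hormone list Ghr, Igf1 and Socs2. The profile comparison left out predicted genes and immunoglobulin or receptor segments. Sequences are from RefSeq, GRCm38.p6. Python 3.11.15 with pandas 2.3.3 and matplotlib 3.10.9 was used. Alternatives were other pseudocounts, filters and scalings, a replicate block, array weights, a muscle covariate and leaving out each library. Chosen after seeing the data: leaving out 3 or 4 libraries that hold muscle reads, voom on recovered reads, and covariates for adipocyte markers and immediate early genes.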

Additional observations from a re-analysis of the deposited data

Results flagged for a closer look

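Among 52 groups of 5 libraries (26 named genes in each genotype), 5 held a library far from the other 4 by Dixon's test at 95%, where chance flags about 1 in 20 groups. Hsd11b1 was at 41.2 FPKM in Flox 1, below the 54.5 to 57.8 FPKM of the other Flox libraries, and Rasd1 was at 117 FPKM in Flox 4, above 29.1 to 48.1 FPKM. Gadd45b was at 41.4 FPKM in Ad-GHRKO 5, above 13.0 to 19.9 FPKM in the other Ad-GHRKO libraries. Igf1 was at 28.8 FPKM in Flox 2, above 14.6 to 16.4 FPKM, and Fos was at 20.3 FPKM in Flox 4, above 10.4 to 13.2 FPKM.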

How the results depend on the processing

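Hsd11b1 and Rasd1 kept their direction under all 25 alternatives and stayed past the threshold under 11 and 12 of them. The 280 genes called over all genes became 117 with no filter, 531 with median ratio scaling, 450 with quantile normalization, 1695 with array weights, 803 with the muscle covariate, 763 without the 3 muscle-rich libraries, 628 with Ad-GHRKO 5 left out too and 833 with the adipocyte covariate. Leaving out each library gave 104 (without Ad-GHRKO 3) to 1182 (without Ad-GHRKO 1), and voom on recovered reads 271. Of the 10 genes, 0 were called with no filter and 0 without the muscle-rich libraries, by either choice, and 0 to 3 when single libraries were left out. Of the pathway lists, 4 genes became 1 with no filter, 12 with array weights, 8 with the adipocyte covariate and 1 to 10 when single libraries were left out.

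With the immediate early covariate limma called 0 genes over all, of which 670 had an unadjusted p under 0.05, and so 0 of the 10 genes and 0 of the pathway lists. In that fit the log2 changes of Rasd1 (-2.33), Tsc22d3 (1.08), Zbtb16 (0.97), Fkbp5 (0.63) and Mt1 (0.72) kept their sign, with adjusted p of 0.932 to 0.999. Hsd11b1 (-0.27), Nr3c2 (0.082), Per1 (0.071) and Sgk1 kept theirs too, and of the 10 genes only Nr3c1 reversed. Its score runs from 3.26 to 4.36 in Ad-GHRKO and from 2.25 to 3.12 in Flox, so the covariate and the genotype cannot be told apart. Small changes reversed sign: Nr3c1 with TPM rescaling (0.053) and the immediate early covariate (0.075), Nr3c2 without Flox 4 (-0.013, up to 0.13 without Flox 1), Fkbp5 without Ad-GHRKO 4 (-0.10) or Flox 1 (-0.096, up to 0.31 without Flox 4), Zbtb16 without Ad-GHRKO 4 (-0.018, up to 0.33 without Ad-GHRKO 5), and Hsp90aa1 (-0.48) and Socs2 (-0.23) with the immediate early covariate.

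With the replicate number of the titles as a block, 85 genes were called, 0 of the 10 genes (Hsd11b1 adjusted p = 0.0657, Rasd1 0.114) and 2 of the pathway lists. Deviations of same-numbered libraries correlated at -0.49 to 0.39, and 1 of 5 libraries correlated best with its own number. Differences in muscle reads between libraries also add to these deviations, so this check cannot exclude pairs. Depth limits Hsd11b2, at 5 to 46 reads per library.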
